A study of Mus musculus with 14 samples.

Results

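H2A.Z is a variant of the core histone H2A. The SRCAP and p400 remodelling complexes place it into nucleosomes, and it is typical of the nucleosomes beside active promoters and at enhancers. In the intestine, Lgr5+ stem cells at the crypt base divide and give rise to the enterocytes of the villus, which absorb nutrients and no longer divide. The regions described here carried an H2A.Z peak in the embryonic epithelium and in adult stem cells and none in enterocytes, and they numbered 1595 of 45028 regions in the whole series.

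H2A.Z was mapped by chromatin immunoprecipitation and sequencing in mouse small intestine of a mixed C57BL/6 CD1 background, with 2 libraries from each of 4 cell populations. The adult populations were enterocytes and Lgr5+ intestinal stem cells (ISC), taken from Lgr5EGFP-Cre-ERT males 2 months old, in which EGFP marks cells that express Lgr5. The embryonic populations were EpCAM+ epithelium sorted at E12.5 and at E14.5. ISC were sorted for high EGFP, whereas the gate given in the labels for enterocytes, EpCAM positive and negative for CD31, CD45 and DAPI, holds no marker of absorptive cells. The files hold peaks and no expression, so the labelled cell types could not be checked against marker genes, and the series text speaks of biological duplicates without saying whether these were separate animals or pools.

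Peaks of all 8 libraries were joined into regions wherever they overlapped or touched. The regions described here lie on chromosomes 1 to 19, are under 3000 bp wide, and hold a peak in both E12.5 libraries, in E14.5 replicate 1 and in both ISC libraries, and in neither enterocyte library. The regions were thus chosen by the peak calls of 7 libraries, and presence or absence in these is no finding. The 1595 regions were 3.68% of the 43299 regions on these chromosomes under that width, and 13.0% of the 12249 that had a peak in the same 5 libraries. Of the rest of those 12249, 2284 had a peak in 1 enterocyte library and 8370 in both.

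A pair of libraries stood apart, since the fragment size that the peak caller estimated lay near the read (tag) length of 68 bp. It was 71 bp in E14.5 replicate 2, which the choice of regions leaves out, and 67 bp in enterocyte replicate 1, against 191 to 247 bp in the other libraries. Their lists were the shortest, with 6136 and 14256 peaks. Enterocyte replicate 1 nevertheless decided little here: of the 2284 regions with a peak in a single enterocyte library, 2269 had it in replicate 2 and 15 in replicate 1. Without enterocyte replicate 1 the regions numbered 1610, and without enterocyte replicate 2 they numbered 3865. Without E14.5 replicate 1 the number was 2404. The libraries held 27835048 to 41274126 tags, the deepest being enterocyte replicate 2. A peak missing from a list means that the caller, run with a q cutoff of 0.05, called none there at this depth. It does not show that H2A.Z was absent.

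Regions are named below by their mm9 coordinates, and each value is the authors' fold enrichment of the strongest peak of a library in the region over the local input background. A fold depends on the depth and input of its own list, so the values of 1 region in several lists stand side by side as a description and show no change between stages. The geometric mean over lists serves only to rank regions. The 12 regions with the highest geometric mean of fold over the 5 lists reached means of 4.70 to 5.13. The strongest lay at chr1:15882437-15883268 and was 832 bp wide. Its fold was 6.65 and 5.94 in E12.5, 3.31 in E14.5 replicate 1, and 4.83 and 5.63 in ISC. The nearest enterocyte peak was 85799 bp away.

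The region at chr11:102308079-102309026 reached 6.59 and 4.75 in E12.5, 3.41 in E14.5 replicate 1, and 5.17 and 5.91 in ISC, and an enterocyte peak lay only 8077 bp away. At chr3:59147107-59148649 the fold was 6.03 and 4.23 in E12.5, 4.35 in E14.5 replicate 1, and 5.06 and 5.68 in ISC, with no enterocyte peak within 335949 bp. The region at chr12:109660792-109662046 had 5.78 and 6.88 in ISC, the highest value of the 12 in ISC replicate 2, beside 4.78 and 5.44 in E12.5 and 2.97 in E14.5 replicate 1. Among the 12, the highest value in E12.5 replicate 1 was 7.77 at chr14:62911225-62912234, beside 5.80 in E12.5 replicate 2 and 3.59 in E14.5 replicate 1, and there ISC had 3.74 and 3.88. At chr2:93019714-93020946 the fold was 5.92 and 3.67 in E12.5, 3.28 in E14.5 replicate 1, and 6.28 and 5.81 in ISC.

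The other 6 of the 12 lay on chromosomes 4, 8 and 9. Those at chr9:40262569-40264040 and chr9:40221945-40222790 were near each other, and the closest enterocyte peak was 182402 and 172252 bp from them. In the first the fold was 6.81 and 4.24 in E12.5, 3.51 in E14.5 replicate 1, and 4.97 and 5.36 in ISC. In the second it was 5.85 and 3.40 in E12.5, 4.19 in E14.5 replicate 1, and 5.70 and 4.81 in ISC. The third on chromosome 9, at chr9:60560539-60561358, had 7.46 and 4.86 in E12.5, 3.69 in E14.5 replicate 1, and 3.88 and 4.78 in ISC. The closest of the 12 to enterocyte H2A.Z was chr4:48552482-48554052, where a peak lay 4856 bp away. The remaining pair, chr4:119031956-119032780 and chr8:72108400-72109144, had means of 4.73 and 4.70. E14.5 replicate 2, not used to choose the regions, had a peak in 10 of the 12, with a fold of 2.97 to 4.35, where 20.4% of the lost regions and 38.1% of all 12249 had one. The 12 were picked for high fold, and the share with this peak was larger at higher fold in E14.5 replicate 1 in each class.

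**Figure D1:**
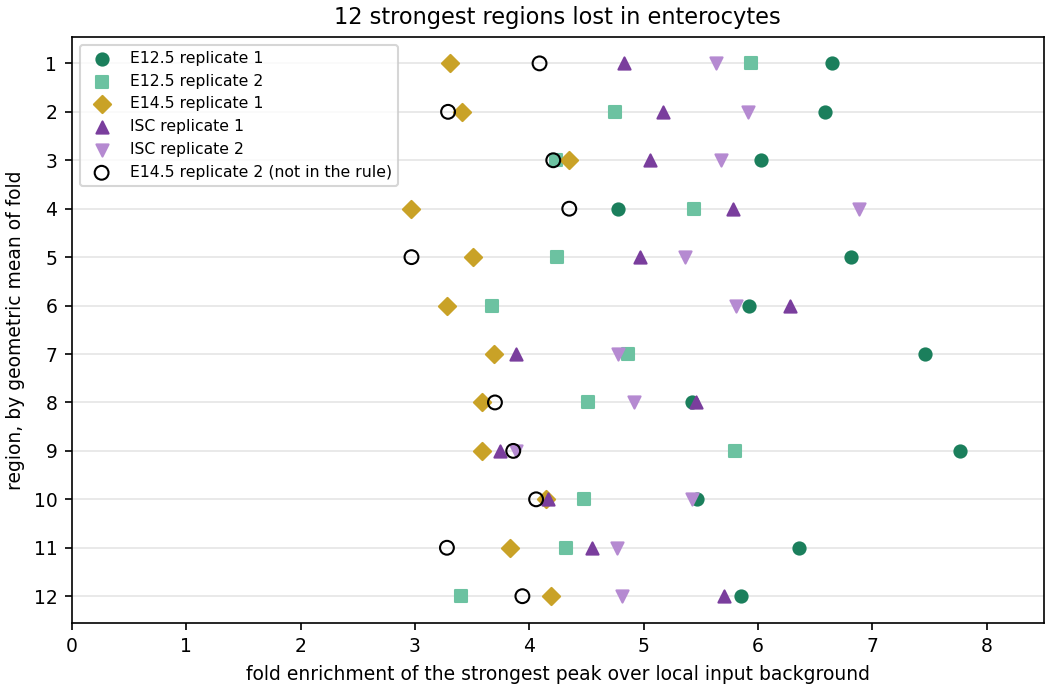
Fold enrichment (x axis, ratio to local input background) of the strongest peak in each list for the 12 regions with the highest geometric mean of fold, numbered from the highest (y axis). Filled points are the 5 lists that chose the regions and open circles are E14.5 replicate 2, which has a peak in 10 of the 12. Folds differ in level between lists, with a median over all 12249 regions of 3.18 in E14.5 replicate 1 and 4.32 in E12.5 replicate 1, so points are to be read within a list.

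At the median, the regions lost in enterocytes were narrower and weaker than those with a peak there. The median width was 1091 bp, against 1354 bp for regions with a peak in 1 enterocyte library and 1652 bp for those with both. A region joined from more libraries is wider by the way it is made. In E12.5 the median fold was 3.94 and 3.34, against 4.00 and 3.39 in regions of 1 enterocyte library and 4.47 and 3.71 in those of both. In E14.5 replicate 1 it was 3.02, against 3.05 with 1 and 3.25 with both. In the embryonic lists the lost regions were thus close to those with 1 enterocyte peak. The gaps were wider in ISC, where the medians were 3.01 and 3.32, against 3.51 and 3.74 with 1 and 4.45 and 4.43 with both. The quartiles of the lost regions and of those with both overlapped in the embryonic lists. In ISC replicate 1 they did not overlap, and ran from 2.68 to 3.47, against 3.85 to 5.12. In ISC replicate 2 they met at 3.85.

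**Figure D2:**
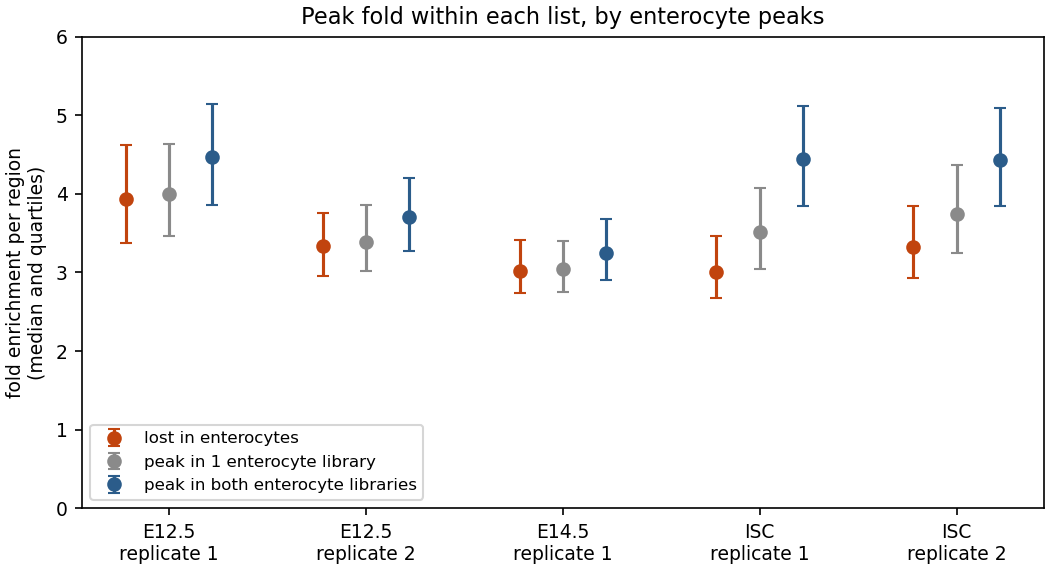
Median fold enrichment per region (y axis) in each of the 5 lists that chose the regions (x axis), with bars from the lower to the upper quartile, for 1595 regions lost in enterocytes, 2284 with a peak in 1 enterocyte library and 8370 with peaks in both. The medians of the lost regions are the lowest in every list, and close to those with 1 enterocyte peak in the embryonic lists. In the ISC lists they are 3.01 and 3.32, against 3.51 and 3.74 with 1 and 4.45 and 4.43 with both.

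To place the stages on 1 scale, the fold was turned into a percentile among the same 12249 regions within each list. The lost regions had a median percentile of 34.3 and 34.9 in E12.5, 38.1 in E14.5 replicate 1, and 13.1 and 17.8 in ISC. They were thus below the middle in all lists, and lowest in those of the stem cells. So were the regions with 1 enterocyte peak, with 37.0 and 38.3 in E12.5, 40.7 in E14.5 replicate 1, and 28.6 and 32.5 in ISC. Of the 1595, 87 (5.45%) were above the middle in both ISC lists, where 42.1% of all 12249 regions were, and 309 (19.4%) were so in both E12.5 lists, where 34.6% were. Above the middle in all 5 lists were 17 (1.07%), against 1915 (22.9%) of the regions with both enterocyte peaks and 16.7% of all 12249.

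Region by region, both ISC percentiles lay below both E12.5 percentiles in 766 lost regions (48.0%), where 28.5% of all 12249 did so, and the opposite held in 154 (9.66%), where 28.0% did. In regions of both enterocyte libraries the shares were 23.0% and 33.2%. The regions with a peak in a single enterocyte library lay between, with 34.9% and 21.7%. The length covered by peaks was shorter in both ISC than in both E12.5 libraries in 570 lost regions (35.7%), where 11.7% of all 12249 were, and longer in 314 (19.7%), where 51.2% were. The median covered length was 670 and 735 bp in ISC, and 875 and 728 bp in E12.5. No test was made of these shares. The absence of enterocyte peaks chose the regions, and with 2 libraries per stage an exact permutation test could not give a p below 0.333.

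The share of regions lost in enterocytes followed the ISC fold more steeply than the embryonic fold. The 12249 regions were ordered by fold in each list and split into 5 equal groups. In the group with the lowest fold in ISC replicate 1, 2.05 to 3.26, 41.7% (95% Wilson interval 39.8 to 43.7) were lost. In the group with the highest fold, 5.03 to 9.32, the share was 0.571% (0.341 to 0.957), or 14 regions. In ISC replicate 2 the same shares were 34.9% (33.0 to 36.8) and 2.08% (1.59 to 2.73). In E12.5 replicate 1 they were 22.4% (20.8 to 24.1) and 7.92% (6.91 to 9.05), and in E12.5 replicate 2 they were 20.8% (19.2 to 22.4) and 7.27% (6.30 to 8.36). E14.5 replicate 1 gave 17.9% (16.4 to 19.5) and 7.88% (6.88 to 9.01). These intervals cover counting error over regions only, and neighbouring regions are not independent. The lists also differ in how well fold repeats. Over the 12249 regions Spearman's correlation of fold was 0.86 between the ISC lists, which share an input, and 0.53 between the E12.5 lists. The part of this difference in the steeper course was not tested.

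**Figure D3:**
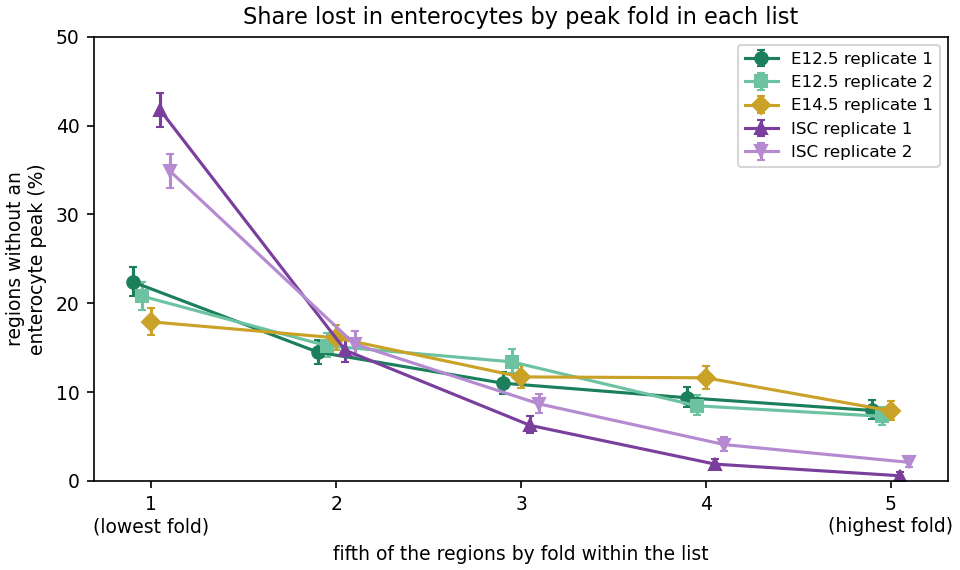
Percent of regions without an enterocyte peak (y axis) in each of 5 equal groups of the 12249 regions by fold within a list (x axis, lowest to highest), with 95% Wilson intervals. The ISC lists run from 41.7% and 34.9% in the lowest group to 0.571% and 2.08% in the highest, a steeper course than in the 3 embryonic lists.

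The fold of a lost region in 1 list was only loosely related to its fold in a list of another stage. Over the 1595 regions, Spearman's correlation of fold was 0.74 between the ISC lists, which share an input library, and 0.45 between the E12.5 lists, which do not. Between ISC and E12.5 lists it was 0.20 to 0.25. E14.5 replicate 1 had 0.14 and 0.17 with ISC, and 0.19 and 0.29 with E12.5. In regions with 1 enterocyte peak the correlation was 0.80 between the ISC lists, 0.46 between the E12.5 lists and 0.22 to 0.29 between ISC and E12.5. With both enterocyte peaks these values were higher, 0.85 between the ISC lists, 0.52 between the E12.5 lists and 0.30 to 0.38 between ISC and E12.5. These are descriptions over regions, and the part of the narrower range of fold in the lost regions was not tested.

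E14.5 replicate 2 was the only H2A.Z library outside the choice of regions. It had a peak in 326 of the 1595 regions, or 20.4% (18.5 to 22.5), against 26.0% (24.2 to 27.8) of the regions with a peak in 1 enterocyte library and 44.8% (43.8 to 45.9) of those with both. Over all 12249 regions the share was 38.1%, and over all 43299 regions 11.8%. Among the lost regions, the highest fold in this library was 5.44, where the highest of all 12249 was 6.01. It lay at chr14:8146979-8148000, where E12.5 had 5.39 and 4.40, E14.5 replicate 1 had 4.20, and ISC had 3.79 and 2.82. The next, 5.25, lay at chr5:16058838-16059996, with 4.29 and 3.72 in E12.5, 2.72 in E14.5 replicate 1, and 4.65 and 4.36 in ISC. The other 3 of the 5 highest, at chr13:65452938-65453858, chr5:109895503-109896658 and chr14:104118302-104118837, had 4.80 to 5.12 in this library and 2.64 to 3.20 in ISC.

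The 326 regions with a peak in E14.5 replicate 2 had a higher median fold in each of the 5 lists than the other 1269, by most in E12.5 replicate 1. Their median percentile was 59.9 and 56.4 in E12.5, against 29.1 and 29.7. In ISC replicate 2 they stayed low, with 25.1, against 16.6. Their median fold was 3.36 in E14.5 replicate 1, against 2.97, and 3.23 in ISC replicate 1, against 2.98. They were also wider, with a median of 1242 bp, against 1054 bp.

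The share in E14.5 replicate 2 was level between the classes at the lowest ISC fold. At higher ISC fold it was lower in lost regions than in those with both enterocyte peaks. With the 12249 regions split into 4 equal groups by fold in ISC replicate 1, it was, in the lowest group, 17.1% (15.1 to 19.4) in lost regions, 19.2% (16.9 to 21.8) with 1 enterocyte peak and 18.2% (15.8 to 20.8) with both, and this group held 1155 of the 1595 regions. In the next group it was 26.4% (21.9 to 31.5), against 26.9% (23.8 to 30.3) with 1 enterocyte peak and 33.6% (31.6 to 35.7) with both. In the one after it the share was 36.4% (27.6 to 46.2), against 33.8% (29.4 to 38.5) with 1 and 44.9% (43.0 to 46.8) with both. There the interval of the lost regions overlapped those of both other classes. In the highest group 19 lost regions remained, of which 7 had the peak, or 36.8% (19.1 to 59.0). The share there was 45.9% (38.0 to 54.0) with 1 enterocyte peak and 60.9% (59.1 to 62.6) with both. At like width or like fold in E14.5 replicate 1 the share was lower in lost regions than in those with both in each of the 4 groups. In the narrowest group by width it was 16.4% (14.2 to 18.9), against 32.0% (29.5 to 34.6) with both, and in the highest group by fold in E14.5 replicate 1 it was 40.8% (35.1 to 46.9), against 69.3% (67.4 to 71.1). E14.5 replicate 2 has the small fragment size in common with enterocyte replicate 1, which also had no peak in nearly all regions of the class with 1 enterocyte library. The part of fragment size in these shares was not tested.

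**Figure D4:**
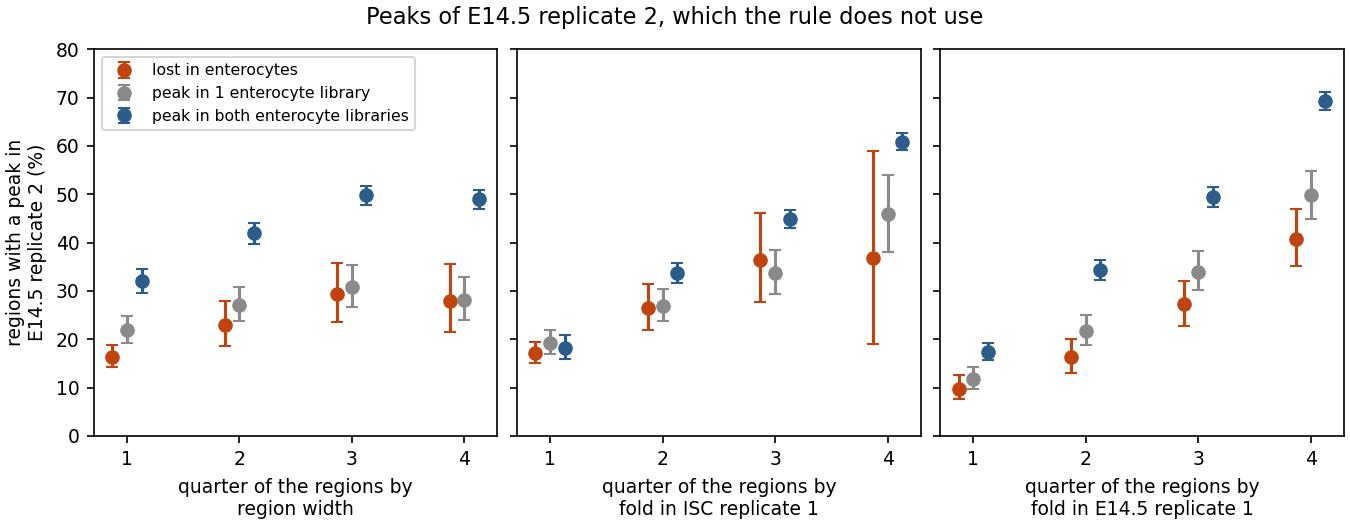
Percent of regions with a peak in E14.5 replicate 2 (y axis) in 4 equal groups of the 12249 regions by width, by fold in ISC replicate 1 and by fold in E14.5 replicate 1 (x axes, lowest to highest), with 95% Wilson intervals. Lost regions lie below those with both enterocyte peaks by width and by E14.5 fold, and level with them in the lowest group by ISC fold, at 17.1% against 18.2%.

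The lost regions stood farther from enterocyte H2A.Z than the other regions did from their next enterocyte peak. The median distance to the nearest enterocyte peak outside the region was 34.2 kb, against 23.9 kb for regions with a peak in 1 enterocyte library and 19.6 kb for those with both. Within 5 kb, 153 lost regions (9.59%, 8.24 to 11.1) had such a peak. The share was 13.8% of those with a peak in 1 enterocyte library, 14.3% (13.6 to 15.1) of those with both and 13.6% of all 12249. Without enterocyte replicate 2 it was 5.41% of a larger set of 3865 lost regions. The smallest distance was 867 bp, and 2 lost regions had such a peak within 1 kb. Regions of 3000 bp or more, the broadest H2A.Z domains, lay within 50 kb of 79 lost regions (4.95%, 3.99 to 6.13), against 5.60% (5.13 to 6.12) of those with both enterocyte peaks.

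The 3 regions below lay farthest from any enterocyte peak. The first, at chr14:94289347-94291047, had none within 4274977 bp, and its fold was 4.48 and 3.54 in E12.5, 3.81 and 3.62 in E14.5, and 3.10 and 3.04 in ISC. At chr8:103411335-103411979 the distance was 3147921 bp and the fold 2.89 and 2.99 in E12.5, 3.57 in E14.5 replicate 1, and 3.15 and 3.77 in ISC. The third, at chr12:96932279-96934511, lay 2562167 bp away and had 4.48 and 5.07 in ISC, above the medians of 3.01 and 3.32 of the lost regions.

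**Figure D5:**
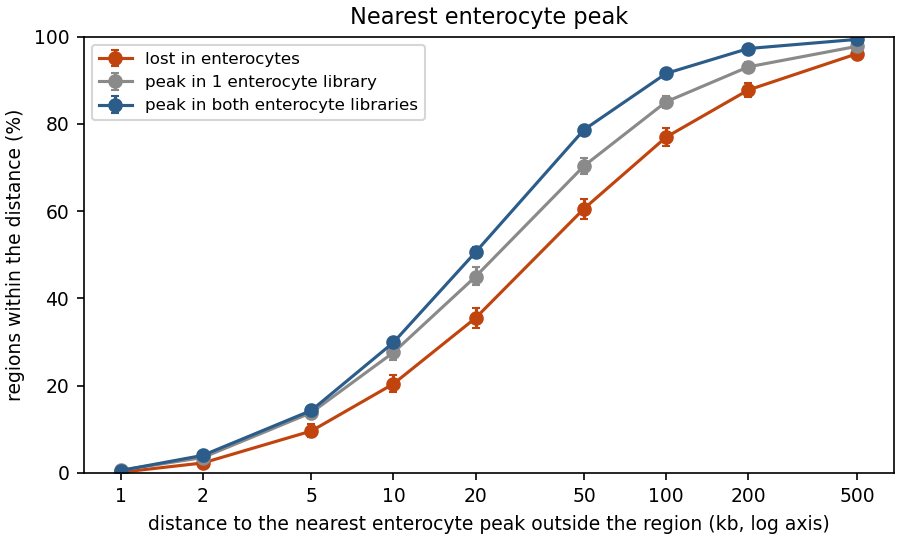
Percent of regions (y axis) whose nearest enterocyte peak outside the region lies within the distance on the x axis (kb, log axis), with 95% Wilson intervals. The curve of the lost regions runs below those of the other classes, with 35.5% within 20 kb, against 45.0% with 1 enterocyte peak and 50.6% with both.

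Most lost regions had no other lost region within 50 kb, and 228 (14.3%) had one. The median distance to the next lost region was 357 kb. Spacing is not given for the other classes or for an equal number of regions. It is thus not shown to be particular to the lost regions. Groups of at least 3 within 50 kb numbered 8 and held 25 regions (1.57%), and in 4 of these groups no enterocyte peak lay in between. The largest, with 4 regions at chr9:107424086-107471947, also held 8 enterocyte peaks in 5 other regions. Its regions had geometric means of fold of 2.59 to 3.35.

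A tighter group, at chr4:108055735-108079568, held 3 lost regions in 23834 bp and no enterocyte peak. The last of these, 944 bp wide, was the strongest, with 4.78 and 4.88 in E12.5, 3.40 in E14.5 replicate 1, and 3.72 and 4.45 in ISC. The group at chr13:23580069-23619037 likewise held 3 lost regions and no enterocyte peak. Its first region had 3.91 and 4.96 in E12.5, 3.58 in E14.5 replicate 1 and only 2.29 and 2.66 in ISC, and its last had 3.52 and 3.33 in E12.5, 4.23 and 4.02 in E14.5, and 3.48 and 4.11 in ISC. The groups at chr1:75356771-75385260 and chr7:52459686-52496833 held 2 and 1 enterocyte peaks. The middle region on chromosome 7 had 4.30 and 2.48 in E12.5, 4.18 in E14.5 replicate 1, and 3.96 and 5.07 in ISC.

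Lost regions were found on all 19 autosomes. Their share of the regions with peaks in the 5 libraries was 10.1% (8.21 to 12.4) on chromosome 4, the lowest, and 16.2% (12.7 to 20.3) on chromosome 18, the highest, against 13.0% overall. These are the extremes of 19 chromosomes, and no test was made of them.

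The width limit left out 29 regions that met the other conditions. The widest inside it were chr18:56835586-56838575, chr13:32473154-32476138 and chr7:80534502-80537467, of 2990, 2985 and 2966 bp, with geometric means of fold of 3.08, 2.92 and 2.96. The narrowest outside it were chr19:26821482-26824487, chr14:55543136-55546146 and chr1:64239067-64242086, of 3006, 3011 and 3020 bp, with means of 3.19, 3.67 and 3.09.

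The number of lost regions depended on how strong a peak had to be. With a −log10 q of at least 5 in all 5 lists, 110 lost regions (6.90%) remained, against 31.1% of all 12249 regions. Of the 2284 regions with a peak in 1 enterocyte library 331 remained, and of those with both enterocyte peaks 40.2%. With the 14256 strongest peaks of each of the 7 lists the number of lost regions was 704. With the peaks of each of the 5 libraries covering at least 50% of the region it was 515. For list length and coverage, no share over all regions is given.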

How the data were processed

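ChIP-seq with an H2A.Z antibody gave 8 libraries, and 6 input samples entered only through peak calling. Each library has its own broad peak list, made with MACS 2.1.0.20140616 run with a q cutoff of 0.05, per the file headers. Listed in the submitters' processing notes are the build mm9 and the tools SAMtools 1.2, Bowtie 1.1.2 and bcl2fastq 1.8.4. The ISC libraries shared 1 input, and so did the enterocyte libraries, per the file headers. The deposited pileup of a peak is a coverage signal, its −log10 p and −log10 q measure evidence against the input, and its fold enrichment is a ratio to the local background, each as the authors' caller wrote it. The listed q of some peaks fell short of the cutoff. In E14.5 replicate 2 the −log10 q was 1.10 at chr9:40262569-40264040 and 1.05 at chr8:72108400-72109144.

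Regions, percentiles, distances and 95% Wilson intervals were computed in Python 3.11.15 with pandas 2.3.3 and scipy 1.17.1. Joining, choice and distances were checked on simulated peak lists. A region took the value of the peak with the highest −log10 p in each list. Regions were named by rule: the 12 highest by geometric mean of fold, the 5 highest in E14.5 replicate 2, the 3 widest, the 3 narrowest left out by width, the 3 farthest from an enterocyte peak and the 5 densest groups. The members, lists and rule were chosen with earlier results of these data known. No annotation or genome of mm9 was used here, so no gene, gene start, motif or sequence is given. No test was made, since the compared peak calls chose the regions. Alternatives were how peaks are joined, thresholds, list length, coverage, margin and width, and leaving out each library. The percentile shares and their alternatives were added after the data were seen.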

Additional observations from a re-analysis of the deposited data

How the results depend on the processing

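The number of lost regions stayed within 1.5 times of 1595 under 8 of 14 alternatives. It was 110 with a −log10 q of at least 5 in the 5 lists, 704 with equal numbers of peaks, 515 with coverage of at least 50%, 326 with a peak in E14.5 replicate 2 also required, and 1610 to 3865 without 1 library at a time, the highest without enterocyte replicate 2. The share with a peak in E14.5 replicate 2, 20.4%, was 50.9%, 37.2% and 28.3% under the first 3 of these, and 14.1 to 23.7% without 1 library. The share with an enterocyte peak within 5 kb, 9.59%, was 7.27% and 5.11% under the first 2, 2.26% within 2 kb, 35.5% within 20 kb, and 5.41 to 10.3% without 1 library. The share with both ISC percentiles below both E12.5 percentiles, 48.0%, was 42.7%, 39.3% and 60.1% with the q limit, equal numbers and a peak in E14.5 replicate 2. It was 58.2% by pileup and 54.9% by −log10 p in place of fold, against 27.6% and 28.4% of all regions. Without 1 library it was 40.2 to 61.8%, and the share over all regions moved as well. That share was 28.5% in the main setting. It was 43.0% without E12.5 replicate 1, which gave the 61.8%, and 28.4% without enterocyte replicate 2, which gave the 40.2%. Where a library was left out, the remaining one of its stage stood alone. In each of these settings the share of lost regions was above the share over all regions of the same setting. The cause of these shifts was not tested. The share within 1 kb of a gene start was not computed, since no mm9 annotation was used. No paired analysis was possible because presence in a peak list gives no fit with a block. Signal that was not called as a peak is not in the lists, so weaker enterocyte signal could not be seen.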
